A study of Mus musculus with 16 samples.

Results

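A group of 8 hormone-receptor and hormone-activating genes was followed in the lungs of pregnant and non-pregnant mice: the oestrogen receptors Esr1 and Esr2, the progesterone receptor Pgr, the glucocorticoid receptor Nr3c1, the mineralocorticoid receptor Nr3c2, the prolactin receptor Prlr, the growth hormone receptor Ghr, and Hsd11b1, the enzyme that regenerates active corticosterone inside cells. Of these 8 genes, 7 had a probe set that the platform annotation assigns to that gene alone, 18 probe sets in all, out of 18193 genes measured in this way. No probe set is named for Prlr in the annotation used here, so it was not analysed here. Where a gene had several probe sets, the one with the highest mean over the 16 arrays stood for it, with no filter on signal.

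The study asked whether pregnancy changes how the lung reacts to an otherwise inert dust. Total RNA of whole lung from female BALB/c mice was hybridised to 16 one-colour Affymetrix mouse arrays, 4 in each of 4 groups. The first group was pregnant mice (labelled gestation day 14) given 50 µg of titanium dioxide particles (TiO2) by nasal insufflation under light halothane anaesthesia, the second was pregnant mice given the saline vehicle PBS, the third was non-pregnant mice given TiO2 and the fourth was non-pregnant mice given PBS. All lungs were taken 19 hours after dosing, and ages and litter details are not analysed here. The labels give separate samples, without saying that each is 1 mouse, so p-values measure the spread between these samples, which may be technical in part.

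The receptors named for steroids are transcription factors: they are held by chaperones until their hormone binds, then bind DNA and recruit coregulators. Ghr and Prlr belong to the cytokine receptor family and signal through the kinase JAK2 and the factor STAT5. In pregnancy the ovary, placenta and adrenal raise progesterone, oestrogen, placental lactogens (which act through Prlr) and corticosterone. In the lung the glucocorticoid receptor drives fetal maturation and is the target of inhaled steroids, and both oestrogen receptors have been linked to the formation of alveoli in mice.

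One array has labels that conflict: the source name of non-pregnant PBS replicate 2 says pregnant, and its gestation field says the opposite. It was kept as non-pregnant by its gestation field, since the design text gives 4 arrays to each group, and results are also given without it. Several arrays stood apart in tissue content. Prss16, a serine protease of thymic cortical epithelium, was at 8.98 and 9.72 in non-pregnant PBS replicates 3 and 4 and between 5.18 and 6.32 in the other arrays, in log2(intensity + 16), the scale of every level below. In pregnant TiO2 replicate 2, Krt13 of squamous epithelium was at 5.21 and Acta1 of striated muscle at 6.56, against at least 10.71 and 11.86 in the other arrays. These 3 arrays are called below the arrays of unlike tissue content. Glycam1, made by the venules of lymph nodes, was near the floor on 3 arrays, with 4.15 on replicate 2 of the pregnant TiO2 group, 4.14 on replicate 1 of the non-pregnant TiO2 group and 4.60 on its replicate 4, against 8.06 to 10.76 in the other 13 arrays. A list of T and B cell genes was also lowest on the last pair, at 6.99 and 7.40, against 7.62 to 8.97 elsewhere. The alveolar type 2 list (8 genes) averaged between 12.56 and 12.62 in each of the 4 groups, near the top of the scale, where quantile normalization leaves little room to differ, so these values show lung tissue in all groups but not equal shares of it. After quantile normalization every array had a median of 5.94, and the lowest possible value was 4.

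None of the 7 genes passed the threshold (Benjamini-Hochberg adjusted p of 0.05 over all 18193 genes, limma) in any of 7 comparisons. Pregnant minus non-pregnant, averaged over both exposures, called 2.3% of all genes (1.76% higher and 0.544% lower) and 0 of the 7. Pregnant and non-pregnant arrays did not overlap for 0.528% of all genes and for 0 of the 7. TiO2 minus PBS, averaged over both kinds of mice, called 0% of all genes and 0 of the 7, where 5.74% of all genes and 0 of the 7 had an unadjusted p under 0.05. The interaction, meaning the TiO2 response of pregnant mice minus that of non-pregnant mice, called 0.0055% of all genes, which was the single gene Atp4a, and 0 of the 7. Without adjustment, 14 of the 49 comparisons of a gene had a p under 0.05, and these are described below with their intervals. By comparison, 2 of the 7 had such a p for pregnancy averaged over exposures (15.4% of all genes), 4 of the 7 for pregnancy after TiO2 (15.8%) and 2 of the 7 for pregnancy after PBS (10%).

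**Figure D1:**
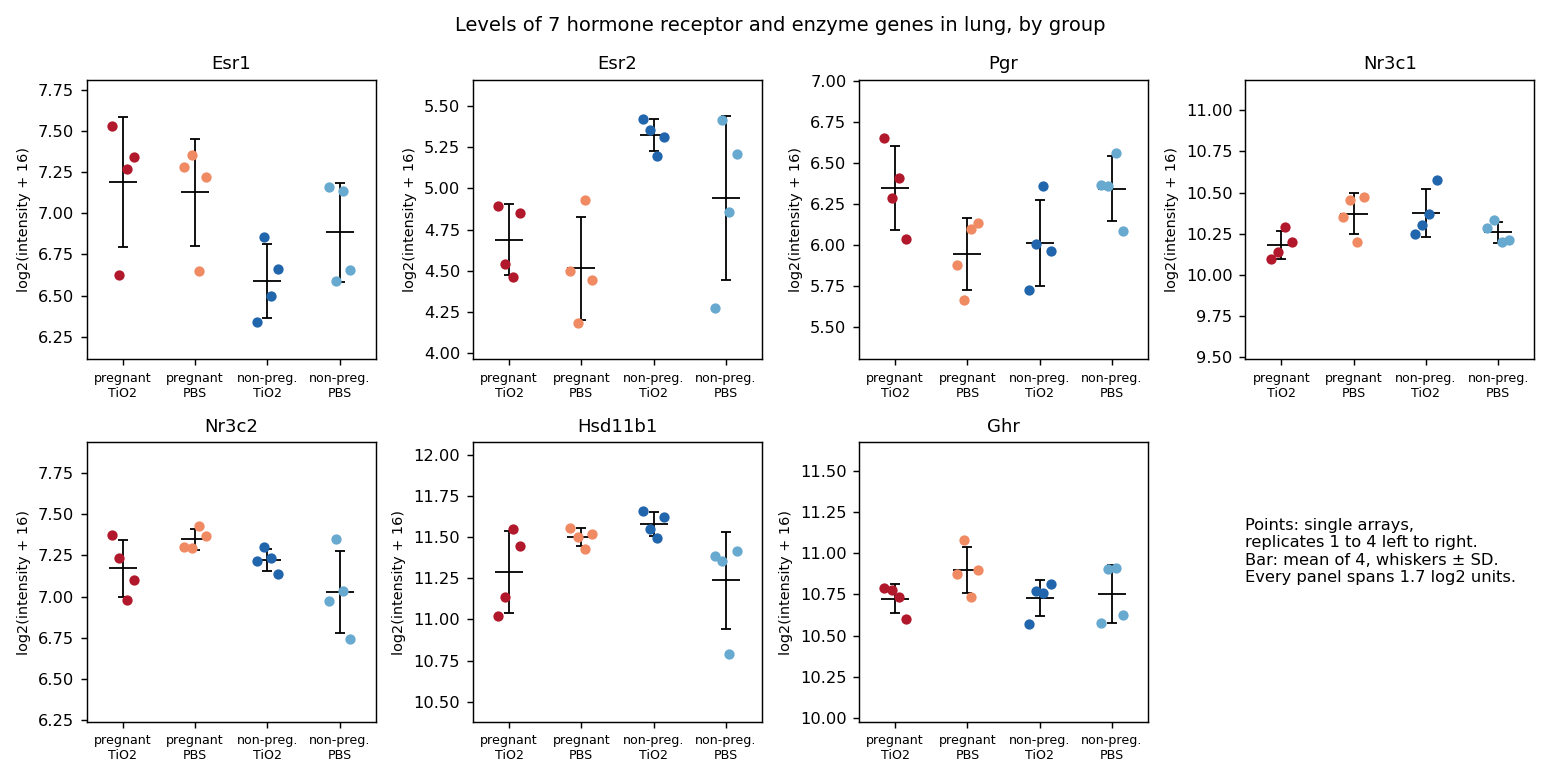
Level of each gene, as log2(intensity + 16) on the vertical axis, in the 4 groups; each point is 1 array, the bar is the mean of 4 and the whiskers are ± SD. The pregnant and non-pregnant arrays overlap for every gene, Esr1 lies lowest in non-pregnant TiO2 mice (6.59 ± 0.22) and Esr2 highest there (5.32 ± 0.10).

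Esr1, which encodes oestrogen receptor alpha, had the higher values in pregnant lungs. It measured 7.53, 6.62, 7.27 and 7.34 in pregnant TiO2 mice, 7.29, 7.35, 6.65 and 7.22 in pregnant PBS mice, 6.34, 6.86, 6.49 and 6.66 in non-pregnant TiO2 mice, and 7.16, 6.59, 7.13 and 6.65 in non-pregnant PBS mice. Of the 8 pregnant arrays 6 were above every non-pregnant array, and the other two, pregnant TiO2 replicate 2 and pregnant PBS replicate 3, lay among the non-pregnant ones. The difference averaged over exposures was 0.42 ± 0.15 log2 (SE; 95% interval 0.11 to 0.74), with an adjusted p of 0.163 by limma. After TiO2 it was 0.60 ± 0.21 (0.16 to 1.04, adjusted p = 0.179), and after PBS it was 0.24 ± 0.21 (−0.20 to 0.68, adjusted p = 0.772). Whether the 2 differ is what the interaction tests, and that was 0.36 ± 0.29 (−0.26 to 0.98, adjusted p = 0.741).

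All 3 Esr1 probe sets had their higher mean in pregnant mice. The differences were 0.42 ± 0.15 for 1460591_at, 0.40 ± 0.15 for 1435663_at and 0.58 ± 0.14 for 1421244_at. Neither of the last 2 exceeded the array median on any array, so they report a weak signal. When the 3 were averaged before the fit, the difference was 0.47 ± 0.09 and passed the threshold (adjusted p = 0.0109, limma), and the difference after TiO2 was 0.58 ± 0.13 (adjusted p = 0.04999, limma).

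The level of Esr1 went together with that of fat cell transcripts, measured by a list of 12 genes (of 15 listed) that includes Adipoq (adiponectin) and Fabp4 (a fatty acid carrier). The list mean was 9.35 ± 0.94 in pregnant TiO2 mice, 9.71 ± 0.66 in pregnant PBS mice, 8.40 ± 0.66 in non-pregnant TiO2 mice and 9.55 ± 0.51 in non-pregnant PBS mice (SD, n = 4 each). The single arrays ran between 7.96 and 9.93 in pregnant TiO2 mice, between 8.78 and 10.19 in pregnant PBS mice, between 7.71 and 9.24 in non-pregnant TiO2 mice, and between 8.89 and 10.13 in non-pregnant PBS mice. The 3 lowest were the 3 arrays low in Glycam1, and every other array was at 8.59 or above. They were non-pregnant TiO2 replicates 4 (7.71) and 1 (8.065) and pregnant TiO2 replicate 2 (7.96). Fabp4 measured at least 9.88 and Adipoq at least 7.73 on every array, so neither was at the floor of the scale anywhere. The pregnancy difference had a median of 0.64 over the 12 genes, against 0.01 over all genes, with 11 above zero and 0 called.

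Over the 16 arrays the chosen Esr1 probe set and the fat list mean had a Pearson r of 0.84 and a Spearman rho of 0.83 (permutation p = 8e-05 and 0.00015, adjusted to 0.00024 and 0.00045 over the 3 Esr1 probe sets). Only this gene and list were paired, both chosen with earlier results of these data known, and arrays were shuffled across groups. The permutation p-values here are therefore a description. Without the 2 arrays farthest from the median of the fat list r was 0.89, and after group means were subtracted it was 0.85. The other probe sets had weaker relations, with r of 0.44 for 1435663_at (permutation p = 0.0919) and 0.24 for 1421244_at (permutation p = 0.376). With the fat list mean as a covariate, the pregnancy difference of Esr1 was 0.21 ± 0.10 (adjusted p = 0.347, limma) and that after TiO2 was 0.24 ± 0.14 (adjusted p = 0.500, limma). In whole lung, a change in the number of cells of a type and a change in RNA per cell cannot be told apart. The 3 genes whose levels were most like those of Esr1 over the 16 arrays, of 12360 compared, were Adig (r = 0.92), Decr1 (0.91) and Tmem45b (0.91), and after group means were subtracted r was 0.92, 0.86 and 0.88. Adig encodes adipogenin, a protein of fat cells, and Decr1 an enzyme of fatty acid oxidation. These values are a description, since the genes were picked as the highest.

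**Figure D2:**
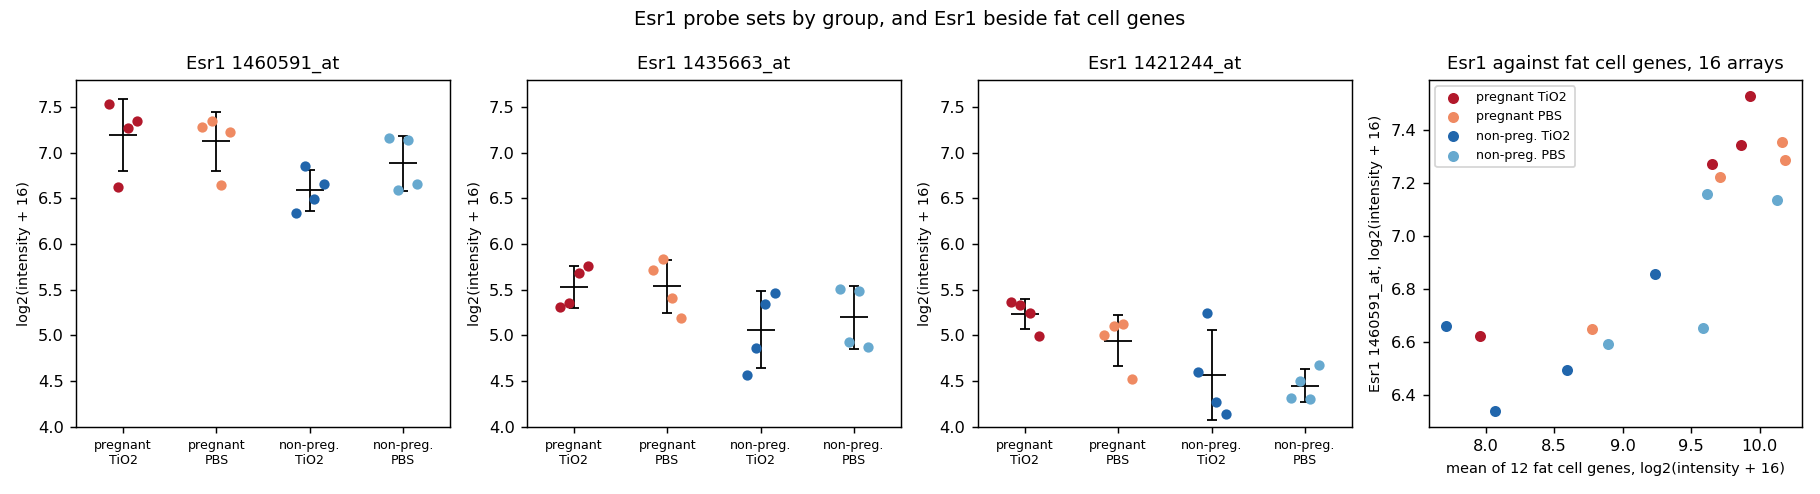
The first 3 panels show each Esr1 probe set, as log2(intensity + 16), in the 4 groups (points are arrays, bar and whiskers mean ± SD of 4); the last sets the chosen probe set (vertical) against the mean of 12 fat cell genes (horizontal) over 16 arrays. All 3 probe sets have their higher mean in pregnant mice, and Esr1 and the fat list rise together along the last panel (r = 0.84).

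Esr2, which encodes oestrogen receptor beta, gave the opposite order at a very low signal. It measured 4.89, 4.54, 4.46 and 4.85 in pregnant TiO2 mice, 4.50, 4.18, 4.93 and 4.44 in pregnant PBS mice, 5.43, 5.36, 5.20 and 5.32 in non-pregnant TiO2 mice, and 4.27, 5.42, 4.86 and 5.21 in non-pregnant PBS mice. It was under the array median on all 16 arrays. The 4 non-pregnant TiO2 arrays lay above all 8 pregnant arrays, and the non-pregnant PBS arrays ran between 4.27 and 5.42. The pregnancy difference was −0.53 ± 0.15 (95% interval −0.84 to −0.22, adjusted p = 0.0761, limma), the smallest p of the 7 genes in this comparison. After TiO2 it was −0.64 ± 0.21 (−1.08 to −0.19) with groups that did not overlap (adjusted p = 0.157); among all genes 12.1% had groups that did not overlap in that comparison, and 0.775% were called. Without non-pregnant PBS replicate 1 the averaged difference was −0.64 (adjusted p = 0.0121), and without pregnant PBS replicate 3 it was −0.60 (adjusted p = 0.0484), so that either array left out brings it past the threshold.

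The conflicting array bears on both oestrogen receptors. With it left out, the pregnancy difference was 0.37 for Esr1 (adjusted p = 0.265) and −0.45 for Esr2 (adjusted p = 0.128). Counted as a pregnant PBS array, it gave 0.32 for Esr1 (adjusted p = 0.425) and −0.36 for Esr2 (adjusted p = 0.404). Esr1 differed by 0.52 ± 0.14 (adjusted p = 0.0611) once the 3 arrays of unlike tissue content were left out. Over 29 alternatives, that setting included, the pregnancy difference of Esr2 ran between −1.12 and −0.21 (adjusted p of 0.0121 to 0.404, limma). Without the 3 arrays low in Glycam1, 2 of which are in the group where Esr1 was lowest, Esr1 differed by 0.47 ± 0.15 for pregnancy (adjusted p = 0.174) and by 0.71 ± 0.23 after TiO2 (adjusted p = 0.325), and Esr2 by −0.48 ± 0.18 for pregnancy (adjusted p = 0.279). That setting was chosen after the data were seen.

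The promoters of Esr1 and Esr2 are shown because these 2 genes had the smallest p for pregnancy. Each window holds the 250 bases before a transcription start, from RefSeq on GRCm38.p6. Esr1 has 2 starts there, at chr10:4611739-4611988 and chr10:4709908-4710157, both on the plus strand, and Esr2 has 1 at chr12:76177260-76177509 on the minus strand. Capitals mark the only match found in them, to the STAT site TTCNNNGAA.
Esr1 first start: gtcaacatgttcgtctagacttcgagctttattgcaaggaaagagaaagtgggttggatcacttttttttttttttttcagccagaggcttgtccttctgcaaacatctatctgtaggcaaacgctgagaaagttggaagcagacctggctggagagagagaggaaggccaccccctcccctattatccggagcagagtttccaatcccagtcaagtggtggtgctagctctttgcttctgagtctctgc
Esr1 second start: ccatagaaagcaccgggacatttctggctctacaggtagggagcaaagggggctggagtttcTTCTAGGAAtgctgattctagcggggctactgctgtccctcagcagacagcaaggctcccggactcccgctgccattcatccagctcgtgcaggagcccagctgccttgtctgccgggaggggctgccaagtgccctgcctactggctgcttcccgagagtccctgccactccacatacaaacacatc
Esr2: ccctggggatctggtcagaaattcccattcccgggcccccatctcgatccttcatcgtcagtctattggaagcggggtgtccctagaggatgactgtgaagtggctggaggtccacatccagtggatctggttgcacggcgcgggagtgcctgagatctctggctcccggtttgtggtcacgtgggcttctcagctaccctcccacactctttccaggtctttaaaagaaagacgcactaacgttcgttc
The motifs searched on both strands were the nuclear receptor half-site AGGTCA, the half-site AGAACA used by glucocorticoid, mineralocorticoid and progesterone receptors, and TTCNNNGAA. Of the 11 windows of 7 of the 8 genes (Prlr included, Nr3c1 not shown), AGGTCA was in 0, AGAACA in 1 (of Prlr) and TTCNNNGAA in 2 (1 of Esr1, 1 of Prlr). Among the 32851 windows searched, which do not cover every chromosome, these motifs were in 14%, 16.1% and 7.02%. A match describes the letters of the window and is not a measured binding site.

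Pgr, the progesterone receptor, stayed near the array median and was on 13 of 16 arrays above it. It measured 6.65, 6.29, 6.41 and 6.04 in pregnant TiO2 mice, 5.88, 5.66, 6.10 and 6.13 in pregnant PBS mice, 5.72, 6.01, 6.36 and 5.96 in non-pregnant TiO2 mice, and 6.37, 6.36, 6.56 and 6.08 in non-pregnant PBS mice. The means crossed over, with 6.35 ± 0.25 in pregnant TiO2 mice against 5.94 ± 0.22 in pregnant PBS mice, and 6.01 ± 0.26 in non-pregnant TiO2 mice against 6.34 ± 0.20 in non-pregnant PBS mice (SD, n = 4 each). The TiO2 difference was 0.40 ± 0.16 in pregnant mice (0.07 to 0.74, adjusted p = 0.832) and −0.33 ± 0.16 in non-pregnant mice (−0.67 to 0.01, adjusted p = 0.600). In these comparisons 0% and 0.0055% of all genes were called, and 5.91% and 8.49% had an unadjusted p under 0.05. The interaction was 0.73 ± 0.22 (95% interval 0.26 to 1.21), the largest of the 7 genes, and its adjusted p was 0.487 (limma).

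Of the 7 genes, 4 had an unadjusted p under 0.05 for the interaction (Pgr, Hsd11b1, Nr3c1 and Nr3c2), against 8.96% of all genes. All 3 Pgr probe sets gave an interaction above zero: 0.73 ± 0.23 for 1439527_at, 0.41 ± 0.16 for 1421444_at and 0.26 ± 0.17 for 1455772_at. The last 2 were near the lowest possible value of 4 on every array, between 4.07 and 4.64 and between 4.09 and 4.72. Their sign therefore adds little to that of the first. Averaged over exposures, Pgr differed by −0.03 ± 0.11 between pregnant and non-pregnant mice (−0.27 to 0.20), and after PBS by −0.40 ± 0.16 (−0.74 to −0.06, adjusted p = 0.388), a comparison that called 0.506% of all genes and 0 of the 7. The interaction was 0.77 without the 3 arrays of unlike tissue content and 0.73 without the conflicting array. It was 0.63 without pregnant TiO2 replicate 1. Without the 3 arrays low in Glycam1, a setting chosen after the data were seen, it was 0.58. Over 30 alternatives it ran between 0.44 and 0.93.

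Nr3c1, the glucocorticoid receptor, was strongly expressed, and the probe set that stood for it varied little. It measured 10.09, 10.14, 10.29 and 10.20 in pregnant TiO2 mice, 10.35, 10.46, 10.20 and 10.48 in pregnant PBS mice, 10.25, 10.30, 10.37 and 10.58 in non-pregnant TiO2 mice, and 10.28, 10.33, 10.20 and 10.21 in non-pregnant PBS mice. Its within-group SD was 0.11, against a median of 0.20 over all genes, and 88.9% of genes varied more. The pregnancy difference was −0.04 ± 0.06 (95% interval −0.17 to 0.10, adjusted p = 0.83), an interval that covers folds from 0.886 to 1.07. The interaction was −0.31 ± 0.13 (−0.58 to −0.04, adjusted p = 0.526), and pregnant TiO2 mice minus non-pregnant TiO2 mice gave −0.19 ± 0.09 (−0.38 to −0.0014, adjusted p = 0.313). The 6 Nr3c1 probe sets did not share this: their interactions were −0.66 ± 0.43 for 1421866_at, −0.31 ± 0.13 for 1421867_at, −0.13 ± 0.43 for 1453860_s_at, −0.05 ± 0.17 for 1460303_at, −0.03 ± 0.30 for 1431378_at and 0.54 ± 0.28 for 1457635_s_at. Of these, 1421867_at, 1460303_at, 1457635_s_at and 1421866_at were above the median on all 16 arrays, and their interactions had both signs. In that order, their levels ran between 10.09 and 10.58, 9.98 and 10.53, 8.14 and 9.28, and 6.67 and 8.44. The small spread is thus not shared by every Nr3c1 probe set.

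**Figure D3:**
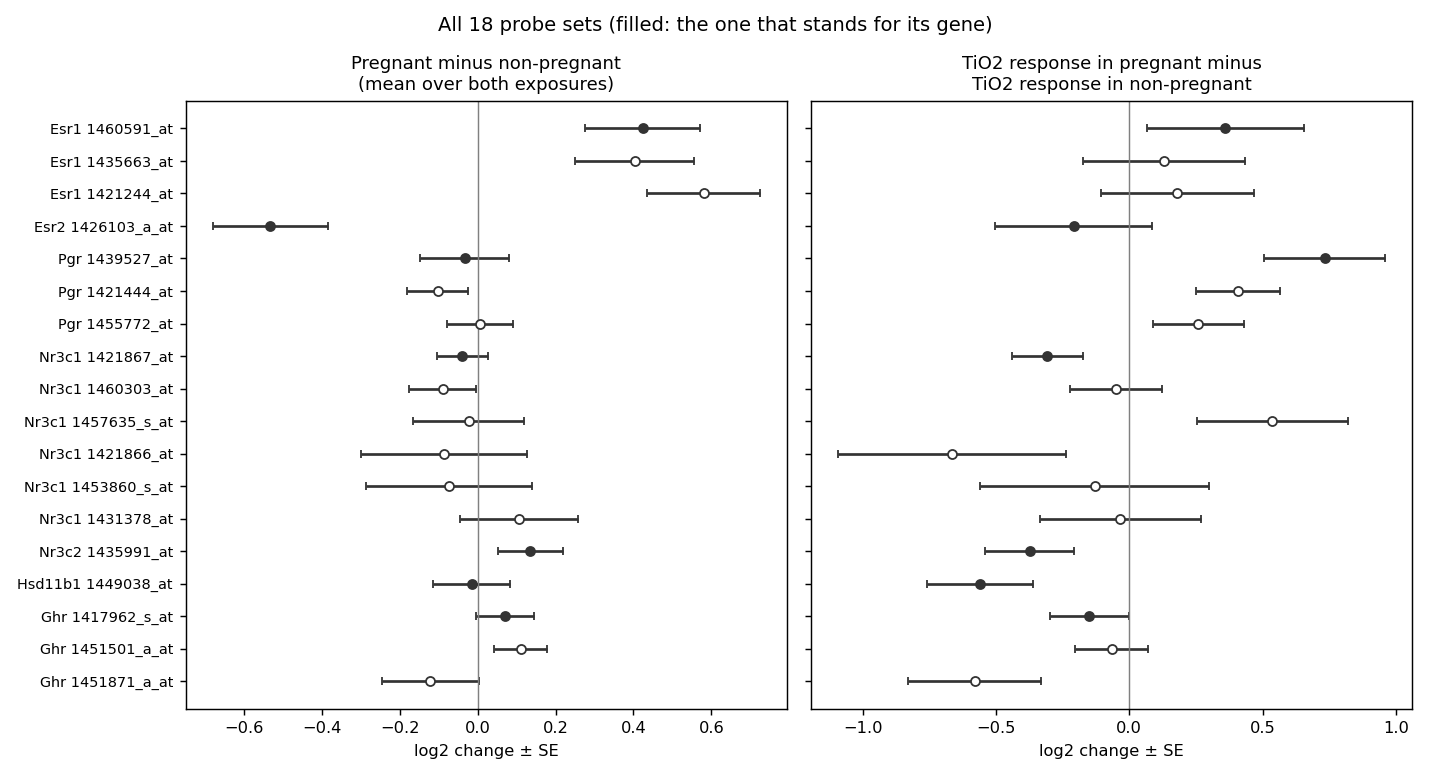
Log2 change ± SE (horizontal) of all 18 probe sets of the 7 genes, for pregnant minus non-pregnant (left) and for the interaction (right); filled circles are the probe sets that stand for their gene. The 3 Esr1 probe sets lie above zero on the left, the 3 Pgr probe sets above zero on the right, and the 6 Nr3c1 probe sets on the right run between −0.66 and 0.54.

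Hsd11b1, which works in rodents by turning 11-dehydrocorticosterone into corticosterone and so sets how much steroid reaches Nr3c1, was also strongly expressed. It measured 11.02, 11.13, 11.55 and 11.45 in pregnant TiO2 mice, 11.56, 11.50, 11.43 and 11.52 in pregnant PBS mice, 11.66, 11.55, 11.50 and 11.62 in non-pregnant TiO2 mice, and 11.38, 11.36, 10.79 and 11.42 in non-pregnant PBS mice. The 3 low arrays were non-pregnant PBS replicate 3 and pregnant TiO2 replicates 1 and 2, of which the first and the last are among the arrays of unlike tissue content. In non-pregnant mice every TiO2 array lay above every PBS array, a separation that 4.51% of all genes had. The difference was 0.35 ± 0.14 (0.05 to 0.64, adjusted p = 0.513) and was 0.20 without replicate 3 of the PBS group.

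The interaction of Hsd11b1 was −0.56 ± 0.20 (95% interval −0.98 to −0.14, adjusted p = 0.492). It was −0.41 without non-pregnant PBS replicate 3 and −0.37 without the 3 arrays of unlike tissue content (adjusted p = 0.566). After PBS every pregnant array lay above every non-pregnant array, as for 4.94% of all genes, with a difference of 0.26 ± 0.14 (−0.03 to 0.56, adjusted p = 0.554), while after TiO2 the difference was −0.29 ± 0.14 (−0.59 to −0.0005, adjusted p = 0.316). Averaged over exposures it was −0.01 ± 0.10 (−0.22 to 0.19). Its partner enzymes did not pass either: H6pd, which supplies the NADPH that Hsd11b1 uses, had a pregnancy difference of −0.08 ± 0.06 (adjusted p = 0.565), and Hsd11b2, which inactivates corticosterone, one of −0.06 ± 0.13 (adjusted p = 0.892).

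Nr3c2, the mineralocorticoid receptor, which in epithelia responds to aldosterone and controls sodium uptake, was at a moderate level. It measured 7.38, 7.23, 6.98 and 7.10 in pregnant TiO2 mice, 7.30, 7.29, 7.43 and 7.37 in pregnant PBS mice, 7.22, 7.30, 7.24 and 7.14 in non-pregnant TiO2 mice, and 6.97, 7.35, 7.03 and 6.74 in non-pregnant PBS mice. Among the PBS arrays the one non-pregnant value that falls among the pregnant ones, 7.35, is the array with conflicting labels. The difference after PBS was 0.32 ± 0.12 (95% interval 0.08 to 0.57, adjusted p = 0.329), 0.43 ± 0.10 without that array (adjusted p = 0.105) and 0.43 ± 0.10 with it moved to the pregnant PBS group (adjusted p = 0.162). Without non-pregnant PBS replicate 4, an array of unlike tissue content, this difference fell to 0.23. Over 31 alternatives it ran between 0.19 and 0.47 (adjusted p of 0.105 to 0.620, limma). After TiO2 the difference was −0.05 ± 0.12 (−0.30 to 0.19), and the interaction was −0.37 ± 0.16 (−0.72 to −0.03, adjusted p = 0.537).

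Ghr, the growth hormone receptor, was at a high and even level. It measured 10.79, 10.78, 10.73 and 10.60 in pregnant TiO2 mice, 10.88, 11.08, 10.74 and 10.90 in pregnant PBS mice, 10.57, 10.77, 10.76 and 10.82 in non-pregnant TiO2 mice, and 10.58, 10.90, 10.91 and 10.62 in non-pregnant PBS mice. The 4 groups overlapped, and no comparison of the chosen Ghr probe set had an unadjusted p under 0.05. The pregnancy difference was 0.07 ± 0.07 (−0.08 to 0.22, adjusted p = 0.698), folds of 0.945 to 1.17, and the interaction was −0.15 ± 0.14 (adjusted p = 0.783). Of its 3 probe sets, 1417962_s_at, 1451501_a_at and 1451871_a_at gave pregnancy differences of 0.07 ± 0.07, 0.11 ± 0.07 and −0.12 ± 0.13, and interactions of −0.15 ± 0.15, −0.07 ± 0.14 and −0.58 ± 0.25.

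**Figure D4:**
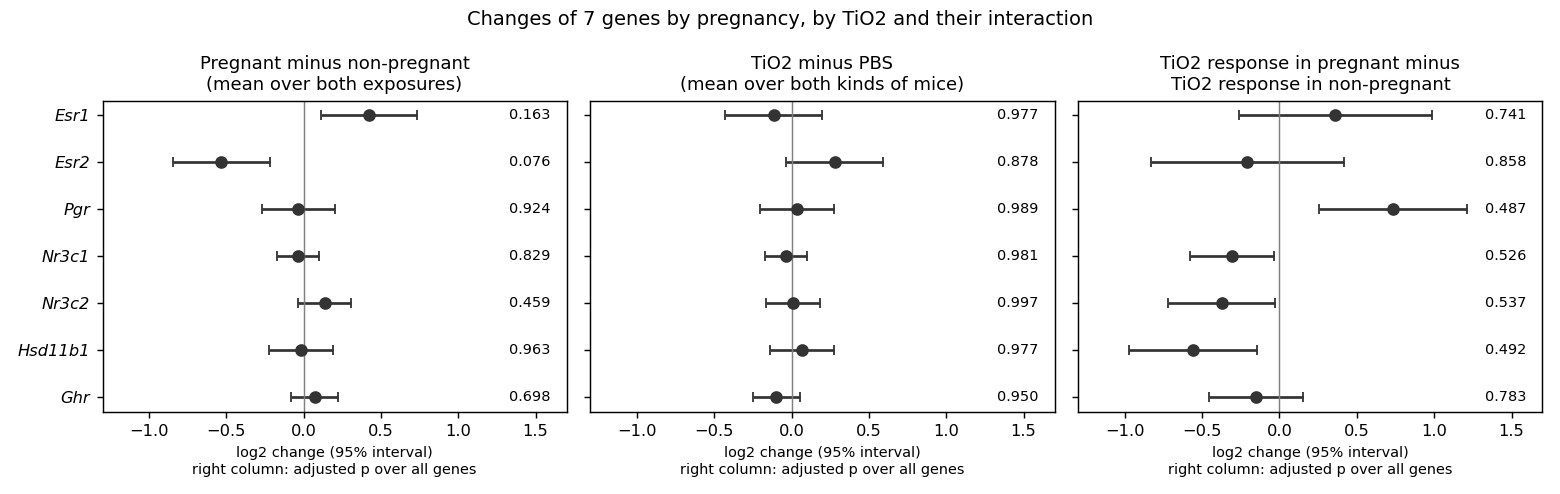
Log2 change with its 95% interval (horizontal) of the 7 genes for pregnant minus non-pregnant, for TiO2 minus PBS and for the interaction; the figures at the right of each panel are p-values adjusted over all 18193 genes. Intervals leave out zero for Esr1 (0.11 to 0.74) and Esr2 (−0.84 to −0.22) on the left, for none in the middle, and for Pgr, Nr3c1, Nr3c2 and Hsd11b1 on the right, and no adjusted p is under 0.05.

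The genes most like the remaining receptors over the 16 arrays, by Pearson r and again given as a description, were Palm (0.89) for Pgr, Mpdz (0.85) for Nr3c1, Tspyl4 (0.80) for Nr3c2, Cfl1 (0.88) for Ghr, and Ago3 (0.93) and Fmo2 (0.93) for Hsd11b1. After group means were subtracted these r were 0.82, 0.79, 0.78, 0.86, 0.95 and 0.91. Fmo2 encodes a flavin monooxygenase that is abundant in lung.

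The hormone pathways around the receptors were read from lists. In pregnant against non-pregnant mice, where 2.3% of all genes were called, 0 of 16 receptor chaperones and coregulators (of 22 listed) were called, and the nearest were the chaperones Hspa8 at −0.20 ± 0.05 (adjusted p = 0.0579) and Stip1 at −0.26 ± 0.11 (adjusted p = 0.256). Of 14 steroid-converting enzymes (of 18) 0 were called, with Srd5a3, of the steroid reductase family, at 0.20 ± 0.08 and Hsd17b4, a peroxisomal dehydrogenase, at 0.15 ± 0.09. Of 12 mineralocorticoid and sodium transport genes (of 13) 0 were called, and 2 subunits of the epithelial sodium channel came nearest, Scnn1a at 0.20 ± 0.07 (adjusted p = 0.172) and Scnn1b at 0.15 ± 0.06 (adjusted p = 0.230). Of 7 ligand genes (of 10) 0 were called and 1 passed a filter on low signal, with Pomc, the precursor of corticotropin, at −0.21 ± 0.11 and Ghrl, which encodes ghrelin, at 0.22 ± 0.13.

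Among 21 measured genes of prolactin and growth hormone signalling (of 22), 0 were called higher and 1 lower, where 1.76% and 0.544% of all genes were. The median change was −0.01, as against 0.01 for all genes. Bcl6, a transcriptional repressor, fell by 0.49 on the log2 scale (SE 0.10, adjusted p = 0.0189, limma). It measured 8.20, 8.04, 8.06 and 7.85 in pregnant TiO2 mice, 8.22, 8.07, 7.91 and 7.90 in pregnant PBS mice, 8.55, 8.58, 8.69 and 8.58 in non-pregnant TiO2 mice, and 8.75, 7.94, 8.51 and 8.56 in non-pregnant PBS mice. The single low non-pregnant value is again the array with conflicting labels, without which the difference was −0.58 (adjusted p = 0.00148), and leaving out the 3 arrays of unlike tissue content ended the call (−0.44, adjusted p = 0.0670). For Ddit4, Errfi1, Nfkbia, Mt1 and Ltf, called genes given below, that conflicting array lay outside the pregnant range, on the non-pregnant side. It measured 9.81 for Ddit4, 11.39 for Errfi1, 12.81 for Nfkbia, 9.93 for Mt1 and 9.68 for Ltf. These genes were called with that array counted as non-pregnant, so its place among them cannot decide its label. The feedback inhibitors that STAT5 induces and the growth factor induced by growth hormone in liver did not pass: Socs2 was at 0.04 ± 0.08 (adjusted p = 0.852), Cish at 0.29 ± 0.09 (adjusted p = 0.139) and Igf1 at 0.31 ± 0.11 (adjusted p = 0.165).

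Of 18 glucocorticoid targets, all measured, 1 was called higher and 3 lower, where 1.76% and 0.544% of all genes were. The median change was −0.11, against 0.01 for all genes. Ddit4, an inhibitor of mTOR signalling, fell by 1.26 on the log2 scale (SE 0.26, adjusted p = 0.0175). It measured 8.65, 8.71, 9.43 and 9.30 in pregnant TiO2 mice, 8.68, 7.69, 9.21 and 9.30 in pregnant PBS mice, 10.68, 9.89, 10.44 and 9.98 in non-pregnant TiO2 mice, and 10.27, 9.81, 9.19 and 10.76 in non-pregnant PBS mice. Apart from 9.19 in non-pregnant PBS replicate 3, every non-pregnant array lay above every pregnant one.

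Errfi1, a feedback inhibitor of the EGF receptor, fell by 0.70 (SE 0.17, adjusted p = 0.0375), and Nfkbia, the inhibitor of NF-kappaB, fell by 0.26 (SE 0.06, adjusted p = 0.0374). Each of these 2 calls was lost in 13 of the 16 fits that left out 1 array. That of Errfi1 held without pregnant TiO2 replicate 3 or 4 or non-pregnant PBS replicate 3, and that of Nfkbia without non-pregnant TiO2 replicate 4 or non-pregnant PBS replicate 1 or 3. Without non-pregnant PBS replicate 3, 5 of the 18 targets were called lower, where 687 of all genes were called against 419 with it. Mt1, a metallothionein, rose by 0.51 (SE 0.11, adjusted p = 0.0230) and was lost in 5 of those 16 fits (without pregnant TiO2 replicates 1 or 3, pregnant PBS replicates 1 or 4, or non-pregnant TiO2 replicate 2). Tsc22d3, which encodes the glucocorticoid-induced leucine zipper, was at −0.56 ± 0.16 (adjusted p = 0.0860), and Fkbp5, a chaperone induced through Nr3c1, was at −0.27 ± 0.23 (adjusted p = 0.637). Moving the conflicting array into the pregnant PBS group left 0 of the 18 targets called in either direction, and 32 of all 18193 genes called against 419. Without the 3 arrays low in Glycam1, 134 genes were called, and the calls of Ddit4 (−1.17, adjusted p = 0.114), Errfi1 (−0.63, adjusted p = 0.187), Nfkbia (−0.28, adjusted p = 0.122), Mt1 (0.52, adjusted p = 0.104) and Bcl6 (−0.51, adjusted p = 0.101) were lost.

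Of 16 oestrogen and progesterone targets (of 18) 1 was called higher, where 1.76% of all genes were. The median change was −0.0007, against 0.01 for all genes. Ltf, which encodes lactoferrin, an oestrogen-induced protein of the mouse uterus that neutrophils also store in granules, rose by 0.75 (SE 0.15, adjusted p = 0.0159). It measured 10.63, 9.74, 10.65 and 10.71 in pregnant TiO2 mice, 10.40, 10.43, 9.99 and 10.24 in pregnant PBS mice, 9.63, 9.88, 9.23 and 9.37 in non-pregnant TiO2 mice, and 10.02, 9.68, 9.66 and 9.29 in non-pregnant PBS mice. Neutrophil genes moved with pregnancy as well: of 8 measured (of 10) 5 were called higher, with a median change of 0.74. The mean of that list ran between 7.73 and 8.43 in pregnant TiO2 mice, between 8.53 and 9.17 in pregnant PBS mice, between 7.44 and 7.94 in non-pregnant TiO2 mice and between 7.68 and 8.07 in non-pregnant PBS mice, and its part in the Ltf value was not tested. The call for Ltf was lost when the conflicting array was counted as pregnant (0.70, adjusted p = 0.0950). In the other 6 comparisons, 0 genes of these 7 lists were called.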

How the data were processed

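Total lung RNA of 16 female BALB/c mouse samples, in 4 groups of 4, was hybridised to Affymetrix Mouse 430 2.0 arrays. Each array has 1 deposited intensity for every probe set, on a linear scale. GCOS, MAS5 and RMA are named per the submitters' processing notes, with no version, and which of them made the values is not known here. The deposited intensities differ in brightness (array medians of 32.0 to 56.5), so 64 control probe sets were dropped, the other 45037 were quantile-normalized and log2(value + 16) was taken, which understates changes of weak signals. Probe sets were named by the platform annotation, with symbols updated by Entrez identifier through a RefSeq gene table (GRCm38.p6), which served for names: 34945 had 1 symbol, 932 several and 9160 none listed, and 34741 matched. One probe set per gene, the one with the highest mean, gave 18193 genes.

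All genes entered 1 fit of 4 group means in limma 3.58.1 (lmFit, eBayes; R 4.3.3) with 12 residual degrees of freedom and 7 contrasts. Adjusted p-values are Benjamini-Hochberg values over all genes, with a threshold of 0.05. Errors are SE of the fit or SD of a group. The fit was tested on simulated data. The number of arrays limits the precision, as the 95% intervals show. A filter, used as an alternative, kept probe sets above their array's median on at least 4 arrays (12369 genes). Promoter windows came from a RefSeq promoter table of the same build.

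Groups come from the labels' source name and gestation; replicate numbers are accession order. The genes and lists were chosen with earlier results of these data known. Named were all 7 measured genes with every probe set, up to 3 called genes per list and direction, the 2 with the smallest p where a list had no call, a few pathway genes and tissue checks, and the genes most alike over the arrays.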

Additional observations from a re-analysis of the deposited data

Results flagged for a closer look

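Hsd11b1 in non-pregnant PBS replicate 3 measured 10.79 in log2(intensity + 16), while the other 3 arrays of that group lay between 11.36 and 11.42. The gap to the nearest array was 0.908 of the whole range of the group, above Dixon's critical value for 4 samples. It was the 1 such array in 28 groups checked (7 genes in 4 groups), and chance flags about 1 in 20. The same array held thymus transcripts (Prss16 at 8.98), and its Ddit4 (9.19), Errfi1 (10.34) and Tsc22d3 (10.85) were the lowest of the 8 non-pregnant arrays. Replicate 4 of that group held more Prss16 (9.72), with Hsd11b1 at 11.42, Ddit4 at 10.76, Errfi1 at 11.36 and Tsc22d3 at 12.02. The part of thymus transcripts in the Hsd11b1 value was not tested.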

How the results depend on the processing

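No paired analysis was possible because replicate numbers here are only the order of the samples. Over all alternatives, 669 of 698 values for single receptor genes kept their sign and their side of the threshold, 6 passed the threshold and 23 changed sign. The count of called genes stayed 0 in 208 of 214 alternatives; it was 1 in pregnant minus non-pregnant averaged over exposures with array weights (Esr2, adjusted p = 0.0343) and with probe sets averaged (Esr1), and 1 after TiO2 with probe sets averaged (Esr1) and with only the compared arrays fitted (Esr2, adjusted p = 0.0494). Leaving out 1 array at a time gave between 0 and 1 called genes for pregnancy, and 0 in the other 6 comparisons. The sign changes were in values near zero or between probe sets. For pregnancy, Hsd11b1 was 0.016 with array weights, 0.018 on the values as deposited, 0.076 with the fibroblast list as covariate, 0.040 without the 3 arrays low in Glycam1 (chosen after seeing the data), and −0.089 to 0.030 with 1 array left out. Pgr was 0.011 with the conflicting array as pregnant, 0.015 with the fibroblast covariate, 0.0059 for 1455772_at, and −0.084 to 0.024 with 1 array left out. Nr3c1 was 0.11 for 1431378_at and 0.011 as deposited, and Ghr was −0.12 for 1451871_a_at. After TiO2, Nr3c1 was 0.090 for 1431378_at and 0.24 for 1457635_s_at, and its interaction was 0.54 for the last. The interaction of Esr2 ran from −0.37 to 0.014 with 1 array left out. The causes were not tested. Among pathway lists and their named genes, 428 of 540 values kept their call or count. Of 30 alternatives per gene, the call was lost in 21 for Errfi1, 21 for Nfkbia, 11 for Mt1, 4 for Ddit4, 3 for Bcl6 and 1 for Ltf. Bcl6 lost its call on the values as deposited (adjusted p = 0.555). Esr2 was under the array median throughout, so signal limits what it can show.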

Other observations

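The 3 arrays with the lowest Hsd11b1 were also low in Tsc22d3, the glucocorticoid-induced leucine zipper. Hsd11b1 measured 11.02 and 11.13 in pregnant TiO2 replicates 1 and 2 and 10.79 in non-pregnant PBS replicate 3, and Tsc22d3 measured 10.88 and 11.17 in the first pair and 10.85 in the last. The 1 other array with Tsc22d3 this low, pregnant PBS replicate 1 at 11.14, had Hsd11b1 at 11.56. These arrays were singled out after their values were seen.

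Among the 21 pairs of receptor genes, the most negative relation over the 16 arrays was that of Pgr and Hsd11b1, with a Pearson r of −0.72, and of −0.55 after group means were subtracted. That of Esr1 and Esr2 came next, with −0.69 and −0.44. These are descriptions of 1 probe set each, of which that of Esr2 was under the array median on every array.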
